A study of Mus musculus with 139 samples.

Results

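Slc26a5 encodes prestin, the motor protein of outer hair cells (OHCs), and was read cell by cell in single hair cells of the mouse cochlea. The gene was found by its Ensembl identifier in the raw count table, and it is 1 of 55335 lines. The table holds 52 outer and 87 inner hair cells taken at postnatal day 14 to 16. They comprised 21 OHCs of the apex, 23 of the middle and 8 of the base, and 34, 34 and 19 inner hair cells (IHCs) of the same regions. All cells share the age range and the tissue; the sources used here do not give strain, genotype or the number of animals. Because no label names an animal, each group counted as 1 sample, the cells of a group were not taken as replicates, and no test between groups was possible. The values are a description of these libraries. Intervals of levels cover counting error only. Intervals of shares of cells take the cells as independent draws, and neither kind covers differences between animals.

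Prestin sits in the lateral wall of the OHC, where it changes shape with the membrane voltage and so lengthens and shortens the cell. This electromotility amplifies the vibration of the cochlear partition. IHCs pass the signal to the auditory nerve through synapses that depend on otoferlin (Otof) and the vesicular glutamate transporter Slc17a8, and are not known for electromotility. Prestin belongs to the SLC26 family, whose other members mostly carry anions across membranes. Low-frequency sound is received at the apex of the cochlea and high-frequency sound at its base.

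The labels were checked against markers first. All 8 IHC markers were lower in OHCs by 2-fold or more as a mean of the 3 regions, and 8 of 10 OHC markers were higher. Across all 15016 genes with at least 5 CPM (counts per 1000000) in 1 or more groups, 39.3% were 2-fold or more lower in OHCs and 17.3% were higher. By the sum of Otof and Slc17a8 against that of Ocm and Ikzf2, 1 OHC and 6 IHCs went against their label. Totals ran from 71027 to 13576942 counts a cell, with 681 to 27575 genes detected, and 11 cells had under 500000 counts. The titles number the cells in a lower series (100 or less, 81 cells) and a higher series (above 100, 58 cells) whose meaning the labels do not give. Among the OHCs, the higher series was the deeper at the apex (median 6352194 against 1655578 counts) and in the middle (10532521 against 762541). Cells are called here by their titles, in which A, M and B stand for apex, middle and base, o and i for OHC and IHC, and the number is that of the series.

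In the GENCODE M21 annotation of GRCm38 the gene spans chr5:21810655-21865604 on the minus strand, 54950 bases with 3072 exonic bases. No annotated gene overlaps it, so reads of an overlapping or antisense gene are not counted to it in this annotation. Of its 5 transcripts, 3 are annotated as protein-coding, and the transcript Slc26a5-201 has 20 exons and 744 codons before the stop. The 250 bases before its start (RefSeq, GRCm38.p6, minus strand, chr5:21865605-21865854) are shown because they lead into the transcript whose level is described. They read 5′ to 3′, with the only GC box (GGGCGG) in capitals.

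Slc26a5 promoter: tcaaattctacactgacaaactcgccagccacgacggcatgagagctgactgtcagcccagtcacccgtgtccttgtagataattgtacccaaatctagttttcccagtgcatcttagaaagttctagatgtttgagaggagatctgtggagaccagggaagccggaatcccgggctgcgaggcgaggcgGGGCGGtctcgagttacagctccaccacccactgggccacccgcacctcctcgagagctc

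The window held 56% G and C and 13 CG dinucleotides, where the median over 32851 promoter windows of the same length was 52.4% and 6. The GC box began 60 bases before the start, and 32.7% of all windows hold that motif on either strand. On both strands there was no match to the CCAAT box (CCAAT, in 33.8% of windows), the TATA box (TATAAA, 12.4%), the E-box (CANNTG, 66.2%), the octamer (ATGCAAAT, 1.6%) or AGGTCA, the half-site of nuclear hormone receptors (14%). These are matches of letters in this window.

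With the counts of each group summed and scaled, Slc26a5 was highest in apical OHCs. Its level was 697 CPM in apical, 207 CPM in middle and 34.3 CPM in basal OHCs. In IHCs it was 48.3 CPM at the apex, 1.44 CPM in the middle and 0.0608 CPM at the base, where 8 counts were found in 136644165. The counting intervals of the 6 levels did not overlap: 692 to 702, 204 to 209, 47.2 to 49.4 (apical IHCs), 31.7 to 36.9 (basal OHCs), 1.29 to 1.61 and 0.0262 to 0.12 CPM. The cells of every group overlapped with those of every other, since each held cells without a read. Scaled per kilobase of exon, so that genes can be set side by side, Slc26a5 was within the top 0.498% of 21899 protein-coding genes in apical OHCs (227 CPM per kilobase). It ranked 392 in middle and 1835 in basal OHCs, and 1850, 10376 and 14064 in apical, middle and basal IHCs.

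**Figure D1:**
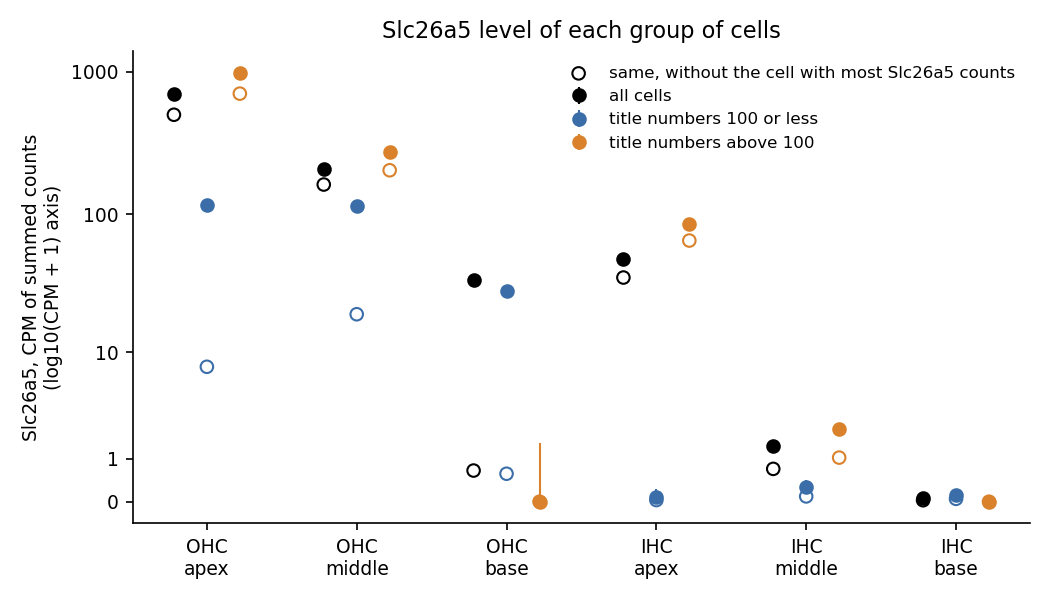
Pooled Slc26a5 level (CPM, on a log10 axis of CPM + 1) in the 6 groups of cell type and region, for all cells and for each title-number series. Filled symbols give the level with its exact Poisson interval, open symbols the level without the cell that held most Slc26a5 counts. With all cells the OHC levels are 697, 207 and 34.3 CPM from apex to base, and the basal value without its leading cell is 0.649 CPM.

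Reads came from most apical OHCs and from a smaller share of the cells in each other group. At least 1 Slc26a5 read was found in 18 of 21 apical OHCs (85.7%, Clopper-Pearson 63.7 to 97%), in 14 of 23 middle OHCs (60.9%, 38.5 to 80.3%) and in 4 of 8 basal OHCs (50%, 15.7 to 84.3%). In IHCs it was found in 14 of 34 apical (41.2%), 11 of 34 middle (32.4%) and 2 of 19 basal cells (10.5%). In all, 36 of 52 OHCs (69.2%, 54.9 to 81.3%) and 27 of 87 IHCs (31%, 21.5 to 41.9%) had a read, at median totals of 2912574 and 5497962 counts. The intervals of these shares take cells as independent draws, although cells can share an animal. By title-number series, 54.8% of the OHCs of the lower and 90.5% of those of the higher series had a read. With every cell thinned to 582635 counts, which left 44 OHCs and 81 IHCs, the shares were 70.5% and 23.5%. A single read is a low bar here: 10 of the OHCs and 15 of the IHCs with a read had 1 to 9, whereas 25 OHCs and 11 IHCs reached 5 CPM. At 100 CPM there were 19 OHCs (12 apical, 7 middle, 0 basal) and 7 IHCs, all apical.

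**Figure D2:**
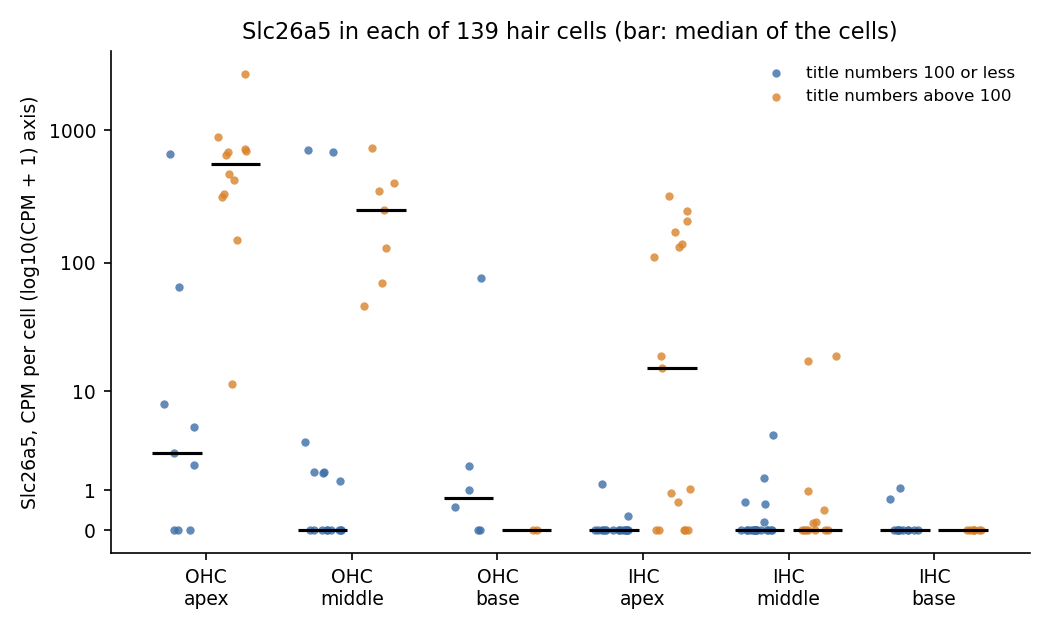
Slc26a5 in each cell (CPM, on a log10 axis of CPM + 1), by cell type and region, with the title-number series in different colours and a bar at the median of the cells of each series. Apical OHCs reach 2649 CPM, basal OHCs 76.9 CPM, and every group holds cells at 0.

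The 21 apical OHCs ran from 0 to 2649 CPM, with a median of 315 CPM. Cell A_o_107 was highest with 24425 counts, 34.8% of the group's Slc26a5 counts. Cells A_o_105 (889 CPM), A_o_120 (716 CPM), A_o_112 (694 CPM) and A_o_113 (684 CPM) followed. Without A_o_107 the pooled level was 499 CPM, so the apex remained above the middle. For comparison, over the 8344 genes with at least 5 CPM in apical OHCs, the median share held by the leading cell was 73.6%, and 88.4% of them rested on 1 cell more than Slc26a5 did. Reads of it were also spread widely, as 3.85% of those genes had reads in more apical OHCs.

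Within the apical OHCs the title-number series stood apart. All 12 cells of the higher series held Slc26a5, from 11.6 CPM (A_o_116) over a median of 558 to 2649 CPM. The 9 cells of the lower series ran from 0 over 2.83 to 661 CPM. Only A_o_18 (661 CPM) and A_o_22 (65.2 CPM) of the lower series passed 10 CPM, and A_o_11, A_o_20 and A_o_21 had no read. Cell A_o_18 held 94.9% of the lower series' 2943 counts, and without it the pooled level of that series was 7.73 CPM.

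The 23 middle OHCs ran from 0 to 737 CPM with a median of 1.72 CPM. All 7 cells of the higher series had reads, from 46.8 CPM (M_o_104) over a median of 252 to 737 CPM (M_o_108). Of the 16 cells of the lower series 9 had none, 5 lay between 1.34 and 3.63 CPM, and M_o_35 and M_o_37 stood far above the rest at 704 and 680 CPM. M_o_37 held 86.7% of the lower series' 4296 counts, and without it that series was at 19.3 CPM. A count of 0 is a weak bound in the shallowest of these cells, since 3 counts amount to 42.2 CPM in M_o_23 and 40.9 CPM in M_o_28. In M_o_24, with 3819016 counts, the same limit is 0.786 CPM.

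In basal OHCs the level rested on 1 cell. Cell B_o_41 had 679 of the 688 Slc26a5 counts (98.7%) and 76.9 CPM, while B_o_49, B_o_48 and B_o_51 had 2, 6 and 1 counts (2.03, 1.01 and 0.506 CPM). B_o_50, B_o_52, B_o_103 and B_o_106 had none; the last 2 are the whole higher series at the base, so that series had 0 counts there, which allows up to 1.28 CPM. Without B_o_41 basal OHCs were at 0.649 CPM, next to middle IHCs without their own leading cell (0.694 CPM). B_o_41 also held 95% of the group's Ocm, 99.4% of its Ikzf2 and 99.6% of its Myo6 counts, and 30.9% of all its counts. A leading cell with most of a gene's counts was usual in this group, where the median over 4279 genes was 94.5%.

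Markers of hair cells and of other cell types also stood at other levels in basal than in apical OHCs. Summed general hair cell markers had a median of 459 CPM a cell at the base (range 6.08 to 3825) and of 5010 CPM at the apex (62.2 to 14260). Summed blood and immune markers were at 6713 CPM (3043 to 30358) against 1496 CPM (89.8 to 10549), and mesenchyme and bone markers at 11312 CPM (1348 to 31613) against 531 CPM (11 to 10052). Neuron and glia markers were at 9778 CPM (5284 to 23367) against 2573 CPM (370 to 6425), and supporting cell markers at 63.2 CPM (1.36 to 2455) against 31.1 CPM (0.217 to 1379). None of the genes of these lists was at 0 counts in either group, and their part in the result was not tested. B_o_103 and B_o_106 also had 42.9% and 43.8% of their counts in mitochondrially encoded genes and CT010467.1.

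From apex to base, the pooled Slc26a5 level of OHCs was lower by a log2 difference of −4.31, computed on CPM with 1 added to each level, so that differences of low genes come out too small. Across all genes the median of that comparison was −0.72, 47.6% were 2-fold or more lower at the base, and 2413 genes had a smaller value than Slc26a5. The difference was −8.81 without B_o_41 and −3.80 without A_o_107. In the lower series it was −1.98. In the higher series the base had 0 counts in 2 cells, with most of the total of 2615863 counts in B_o_106 (2481594). With 3 counts taken as the limit (1.28 CPM), apical OHCs were at least 765-fold higher. The exact interval at the base reached 1.58 CPM, so the bound from it is lower.

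From apex to middle the log2 difference was −1.75, against an all-gene median of 0.01 and 31.3% of genes 2-fold or more lower. The higher series gave −1.85 (981 against 272 CPM). In the lower series the value was −0.03, and the intervals of both levels overlapped. Leaving out A_o_107 gave −1.24, and leaving out M_o_108 gave −2.20. The medians of single cells, 315 and 1.72 CPM, lay further apart than the pooled levels. Marker levels differed here too. Summed general hair cell markers had a median of 1147 CPM a cell in the middle and 5010 CPM at the apex. Mesenchyme and bone markers were at 5899 against 531 CPM, neuron and glia markers at 5845 against 2573 CPM. Supporting cell markers were at 141 against 31.1 CPM, and blood and immune markers, lower in the middle, at 865 against 1496 CPM. Their part in the result was not tested.

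The general hair cell list was lower at the base with Slc26a5. Of 11 members measured at 5 CPM or more in some group, 9 were 2-fold or more lower in basal than in apical OHCs. The median of the 11 was −2.37, and 1 was higher. Over all genes 47.6% were lower and 17.4% higher at the base, with a median of −0.72. Lhfpl5, a subunit of the mechanotransduction complex, was at 1357 CPM at the apex and 0.299 CPM at the base. Pou4f3, a transcription factor needed for hair cell survival, was at 650 and 4.13 CPM, and Myo6, an unconventional myosin of the hair bundle's root, at 3452 and 666 CPM. Espn, an actin bundler of the stereocilia, was the member that was higher at the base (277 and 787 CPM), with 99.1% of its basal counts in 1 cell. Of the 10 OHC markers 7 were 2-fold or more lower at the base and 0 higher, with a median of −3.73.

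Relative to other hair cell genes, the order of Slc26a5 over the regions depended on the gene taken as reference at the base. Per 1000 counts of Ocm, the gene of the calcium buffer oncomodulin, there were 129 counts of Slc26a5 in apical, 62.8 in middle and 7.76 in basal OHCs. Per 1000 counts of Ikzf2, which encodes the transcription factor helios, there were 638, 235 and 39. Per 1000 counts of Myo6 the values were 202, 181 and 51.5, so against this gene the apex and the middle lay closer together. At the base these 3 ratios are those of B_o_41, which held nearly all counts of all 4 genes. Per 1000 counts of Gata3, a transcription factor of the inner ear, there were 234, 206 and 15.9 counts. Per 1000 counts of Pou4f3 there were 1073, 940 and 8289, so against this gene, itself at 4.13 CPM in basal OHCs, the base was highest.

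Compared with IHCs of the same region, Slc26a5 was higher in OHCs by a log2 difference of 3.82 at the apex, 6.41 in the middle and 5.05 at the base. As a mean of the 3 regions it was 5.10, where the median of all genes was −0.59 and 3 of 15016 genes had a larger value. In each region the share of genes 2-fold or more higher in OHCs was 28.6%, 20.7% and 16.1%. The number of genes with a larger difference than Slc26a5 was 780 at the apex, 25 in the middle and 389 at the base. The mean was 6.00 in the lower and 3.31 in the higher series; in the latter both basal groups had 0 counts and add a difference of 0. Without B_o_41 the basal difference was 0.58 and the mean of regions 3.61.

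Among IHCs, Slc26a5 was found mainly in apical cells of the higher series. The 17 apical IHCs of the higher series ran from 0 over a median of 15.6 to 318 CPM (A_i_106), and 12 of them had a read. The 17 apical IHCs of the lower series had 3 counts in all, in 2 cells, or 0.0754 CPM (0.0155 to 0.22). Of the higher series, 7 cells passed 100 CPM: A_i_106, A_i_105 (246 CPM), A_i_113 (208 CPM), A_i_107 (172 CPM), A_i_116, A_i_110 (133 CPM) and A_i_109. They lie within the range of the apical OHCs, and all but A_i_106 under the apical OHC median of 315 CPM, which is that of both series together. All 7, A_i_106 included, lie under the median of the apical OHCs of their own series, 558 CPM.

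Most of these IHCs had the marker of their own type as well. Otof was at 1096 to 7494 CPM in 6 of those 7 cells and at 0.984 CPM in A_i_110, which carried 1523 CPM of Ocm and 3978 CPM of Ikzf2. Ocm was at 146 to 1989 CPM in the 7 cells, and Bmp3, a ligand of the TGF-beta family, reached 7524 CPM in A_i_110. A_i_106 and A_i_110 are among the 6 IHCs that went against their label. Without all cells that went against their label, the apical difference between OHCs and IHCs was 3.98 in place of 3.82, and without A_i_110 alone 3.85.

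Outside the apex few IHCs held it. In the middle, M_i_103 and M_i_107 were at 19.3 and 17.7 CPM, M_i_52 at 4.17 CPM, and 8 further cells at 1.47 CPM or less. M_i_103 and M_i_107 had 4.83 and 0.748 CPM of Ocm beside 2192 and 3457 CPM of Otof. Other OHC markers were present: the summed OHC markers were at 261 and 1213 CPM. Both cells are of the higher series, and the 7 middle IHCs of that series without a Slc26a5 read had 142 CPM (M_i_109) to 2424 CPM (M_i_108). The 2 cells were thus within the range of cells without a read. The median of the middle IHCs of both series together was 56.7 CPM. Ikzf2 was at 0.112 CPM in M_i_103 and at 523 CPM in M_i_107. At the base, B_i_66 and B_i_68 had 5 and 3 counts, and the 7 cells of the higher series had 0, which allows up to 0.0514 CPM. From apex to middle the log2 difference in IHCs was −4.34, with 23% of genes 2-fold or more lower, and from apex to base it was −5.54, with 31.5% lower. In the lower series, with 3 and 8 counts, the latter was 0.06, and middle against apex was 0.23, with 18 counts in the middle and 3 at the apex; neither was lower than the apex in that series.

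**Figure D3:**
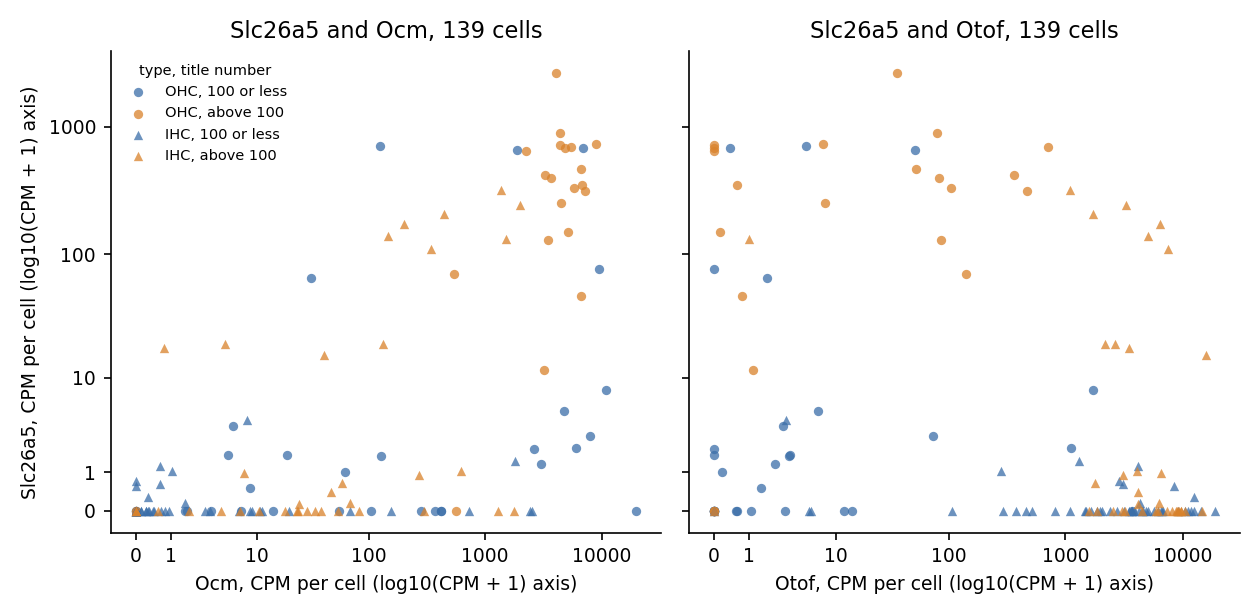
Slc26a5 (CPM) against Ocm and against Otof (CPM) in single cells, all on log10 axes of CPM + 1, with circles for OHCs, triangles for IHCs and colours for the title-number series. All 25 OHCs with at least 5 CPM of Slc26a5 have at least 5 CPM of Ocm, and 8 of 9 such apical IHCs have at least 5 CPM of Otof.

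Cell by cell, Slc26a5 was found within the larger set of OHCs that held Ocm. At a level of 5 CPM, 25 OHCs had both, 21 had Ocm alone, 6 had neither, and 0 had Slc26a5 alone. With Ikzf2 the numbers were 22 with both, 20 with Ikzf2 alone, 3 with Slc26a5 alone and 7 with neither. With Bmp3 20 had both, 5 each had 1 of the genes alone and 22 had neither. Slc17a8 reached 5 CPM beside Slc26a5 in 2 OHCs, and Otof in 15 of the 25.

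Some of the 16 OHCs without a Slc26a5 read held another OHC marker at a high level. Their summed OHC markers ran from 4.05 CPM (B_o_52) to 20342 CPM (A_o_20). Most of them had no more than the 694 CPM of B_o_106, so the cells named next are the high end. Apical OHC A_o_20 had 19865 CPM of Ocm and no Slc26a5 read in 1854749 counts. A_o_11 and the basal B_o_50 had 2778 and 2977 CPM of Strip2, a protein of the striatin-interacting complex, with no read of Slc26a5. The middle OHCs M_o_24 and M_o_38, also without a read, had 1679 and 2071 CPM of Ikzf2. The reverse was seen too: M_o_35 had 704 CPM of Slc26a5 beside 125 CPM of Ocm, and A_o_18 had 661 CPM beside 0.237 CPM of Ikzf2. A high level of 1 OHC marker beside little or none of another was thus seen in single cells of each region.

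Across the 52 OHCs the rank correlation (Spearman) of Slc26a5 was 0.61 with Ocm, 0.67 with Bmp3, 0.63 with Strip2, 0.36 with Ikzf2 and 0.66 with the total counts of the cell. Within the lower (31 OHCs) and the higher series (21 OHCs) those values were 0.46 and 0.35, 0.41 and 0.49, 0.54 and 0.55, −0.06 and 0.37, and 0.26 and 0.47. The values of Ocm, Bmp3, Strip2 and the total counts were lower within each series than over all OHCs. Genes read in a cell share its library and depth, and cells share animals that are not named, so these are descriptions. In the 37 IHCs of the higher series the values were 0.72 with Bmp3, 0.70 with Chrna10, 0.52 with Ikzf2, 0.51 with Ocm and −0.34 with Otof.

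**Figure D4:**
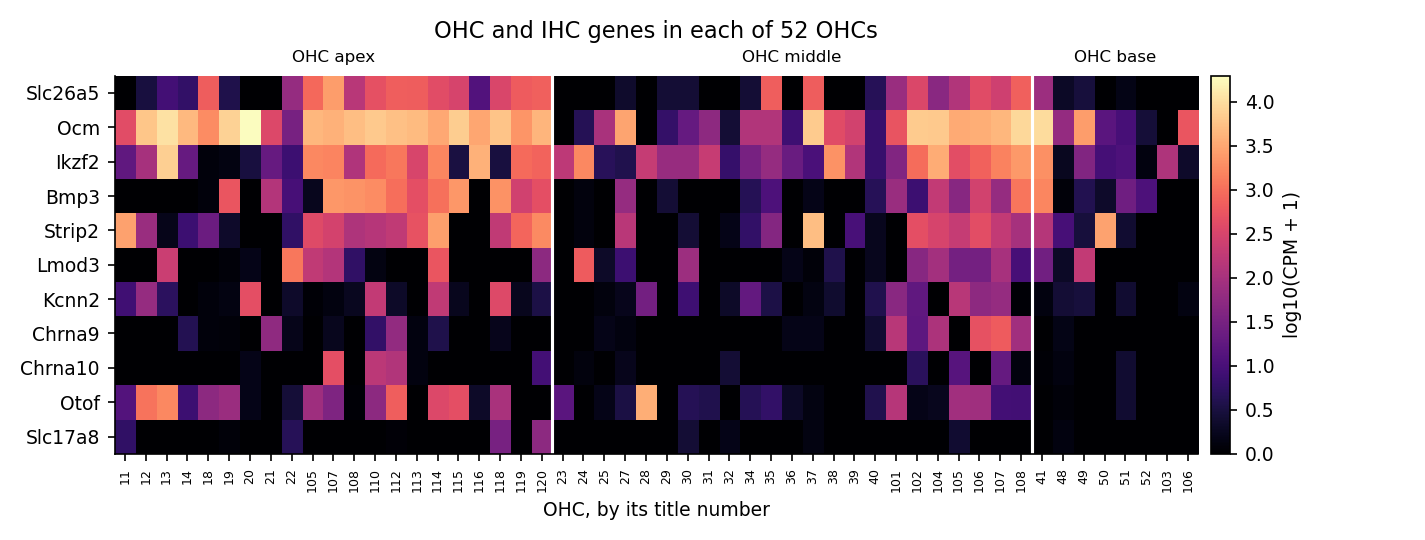
Levels of Slc26a5 and of other genes (log10 of CPM + 1, colour) in each of the 52 OHCs, the cells ordered by region and title number. The higher-series apical and middle OHCs hold Slc26a5 and Ocm together, and among the basal cells B_o_41 alone holds Slc26a5 above 5 CPM.

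The genes whose order over OHCs was most like that of Slc26a5 in both series were found among 8113 candidates by the smaller of the 2 correlations. Lpin2, a phosphatidate phosphatase, led with 0.66 in the lower and 0.70 in the higher series; its level was 8738, 2987 and 5621 CPM in apical, middle and basal OHCs and 965, 1019 and 258 CPM in IHCs. Chst2, a sulfotransferase, had 0.56 and 0.55, Strip2 0.54 and 0.55, and Dpysl2, a microtubule-binding protein, 0.53 and 0.71. Nudt5, Srpk2, Fubp3, Bnip3l and Irx2 were also among the 10, with smaller values of 0.48 to 0.51. Over all candidates the median of the smaller value was −0.06 and the 95th percentile 0.25, and with thinned cells 4 of the 10 were named again.

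Likeness within OHCs and a higher level in OHCs were different things. Chst2 and Dpysl2 were lower in OHCs than in IHCs, by −0.74 and −1.32 as a mean of regions, whereas Lpin2 (3.06), Srpk2, a kinase of splicing factors (3.15), and Strip2 (2.67) were higher. Over all cells of both types, where the cell type itself enters, Bmp3 (0.70), Ocm (0.64), Lpin2 (0.62), Hs3st3b1, a heparan sulfate sulfotransferase (0.61), and AC154218.2 (0.60) were most like Slc26a5. In this order of all cells 4 of 5 were named again with thinned cells.

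Among the SLC26 transporters Slc26a5 stood by itself. All 10 other members were in the table, of which 3 reached 5 CPM in some group. Over all genes 17.3% were 2-fold or more higher in OHCs and 39.3% lower, with a median of −0.59. Of the 3 members, 1 was 2-fold or more higher and 0 were lower, with a median of 0.28. That member was Slc26a1, a sulfate transporter, at 77.9 CPM in middle OHCs and 1.86 and 0.0996 CPM in apical and basal ones; 44.9% of the middle counts came from 1 cell. Per kilobase Slc26a1 was at 19.2 in middle OHCs, where Slc26a5 was at 67.3 CPM per kilobase. Slc26a2, a sulfate transporter of cartilage and many other tissues, lay between 0.648 and 1.44 CPM per kilobase in all 6 groups. Slc26a11 reached 1.8 CPM per kilobase in apical OHCs, with 99.5% of its counts in 1 cell.

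The remaining members were low. Slc26a4 encodes pendrin, the anion exchanger of the inner ear whose loss causes deafness, and was at 0.573 CPM or less in every group. Slc26a8 was at 4.87 CPM in basal IHCs, with 79.9% of the counts in 1 cell, and at 0.978 CPM or less elsewhere. Slc26a7 and Slc26a10 were highest in middle IHCs, at 1.21 and 2.1 CPM, with 97.8% and 92.5% of the counts in 1 cell.

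**Figure D5:**
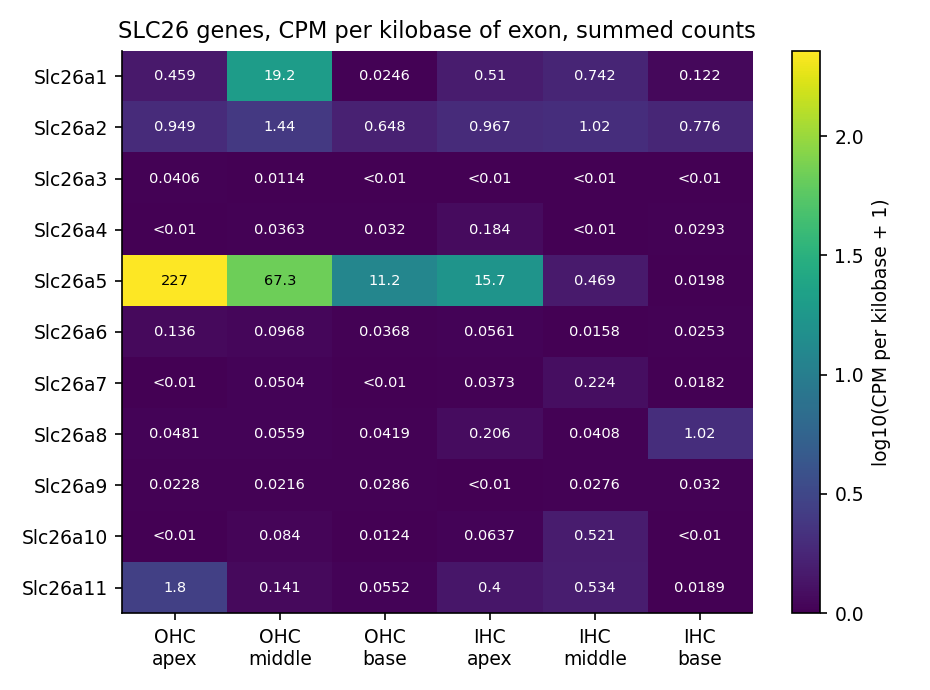
Level per exon length (CPM per kilobase, printed in each field; colour gives log10 of that value + 1) of Slc26a5 and the 10 other SLC26 genes in the 6 groups. Slc26a5 is at 227, 67.3 and 11.2 in OHCs from apex to base, and the highest value of another member is 19.2 for Slc26a1 in middle OHCs.

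Genes of proteins that bind or work beside prestin were counted in the same way. Of 12 such genes 9 could be compared. As a mean of regions 1 was 2-fold or more higher in OHCs and 4 were lower. Over all genes 17.3% were higher and 39.3% lower. The median was −0.08 against −0.59 over all genes. The higher gene was Map1s, a microtubule-associated protein (1.59), with 97.3% of its apical OHC counts in 1 cell. The lower genes included Calm2 (−2.74), which encodes calmodulin, and Sptbn1 (−2.76) and Epb41 (−1.69), which encode proteins of the spectrin cytoskeleton under the membrane. Slc2a5, a fructose transporter described in the OHC wall, was at 0.299 CPM or less in every group, and Cftr at 0.19 CPM or less.

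Of 8 transcriptional regulators tied to the prestin gene or to OHC maturation, 3 were 2-fold or more higher in OHCs and 1 was lower. Their median was −0.25. Over all genes 17.3% were higher and 39.3% lower, with a median of −0.59. Ikzf2 was at 1092, 879 and 878 CPM in OHCs and at 160, 50.5 and 2.09 CPM in IHCs, a mean difference of 5. Rxra, a partner of nuclear hormone receptors, differed by 2.58 and Thra, a thyroid hormone receptor, by 1.02. Thra was at −1.64 in the higher series, and 99.7% of its basal OHC counts came from 1 cell. Thrb, the thyroid hormone receptor needed for hearing, was at 172, 28.3 and 691 CPM in OHCs, with 98.9% of the basal counts in 1 cell, and differed by −0.36. Pou4f3 had a mean difference of −2.42, which was 0.55 at the apex, −0.92 in the middle and −6.87 at the base, where it was at 4.13 CPM in OHCs and 601 CPM in IHCs.

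The OHC markers other than Slc26a5 were mostly higher in OHCs, with a median of 1.89. They ranged from Ocm (6.54) and Ikzf2 (5) over Strip2 (2.67), Lmod3 (2.39) and Lbh (2.04) to Chrna9 (0.38), a subunit of the nicotinic receptor of the efferent synapse. Strip2 differed by 5.28 in the lower and by −1.11 in the higher series, and Lmod3 by 5.61 and 0.04. Chrna10, the partner subunit, was at 81.9 CPM in apical OHCs and 10.3 CPM in apical IHCs, and at 3.14 CPM or less in the other 4 groups. Like Slc26a5, it was therefore highest at the apex in each cell type.

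The genes next to Slc26a5 on chromosome 5 gave no common order. Psmc2, a proteasome subunit 6868 bases away, was at 76.2, 64.5 and 0.0996 CPM in OHCs and at 22.7, 27.2 and 13.4 CPM in IHCs, a mean difference of −0.26. Reln, which encodes the secreted protein reelin, lies 18850 bases away on the other side and reached 4.4 CPM in any group. Dnajc2 differed by 1.17, Pmpcb by −2.26, Orc5 by −1.06 and Lhfpl3 by −1.48. The difference of Slc26a5, 5.10, was above that of each of these 6 genes.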

How the data were processed

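Each sample is 1 hair cell, and the labels name an Illumina HiSeq 2500 for sequencing. The authors deposited raw counts per gene. Trimmomatic, HISAT2, featureCounts (Subread 1.4.6) and GRCm38 (mm10) are named in the submitters' processing notes. Whether counting used strand or molecular identifiers, and how multi-mapping reads were handled, the sources used here do not say. Gene identifiers were looked up in GENCODE M21, where 55154 of 55335 matched without their version; 0 columns stayed unused.

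All cells of a group were added up to 1 column of counts, scaled with TMM (edgeR 4.0.16, R 4.3.3) and given as CPM. A difference is log2 of the first level plus 1 CPM over the second level plus 1 CPM. Single-cell values are CPM of the cell's total. Intervals are exact at 95%, and 3 counts were taken as the limit of a count of 0. The formulas for log2 ratios of summed counts, without TMM, and for rank correlations were checked on simulated data. The TMM step was not checked in this way. PCR reads are not independent molecules.

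Genes were named by a rule: Slc26a5, the lists, the 3 nearest protein-coding genes on each side, and the 10 genes (25% of OHCs with a read) and 5 genes (all cells) most like Slc26a5, without predicted, ribosomal, mitochondrial and pseudogene symbols. Some genes that the rule names are not reported here. The gene and the lists were chosen with earlier results of these data known. Alternatives were other scalings, pseudocounts, thinning, each title-number series, cell filters and leaving out single cells.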

Additional observations from a re-analysis of the deposited data

Results flagged for a closer look

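Among the 8 basal OHCs, B_o_41 lay far from the others in Slc26a5. It had 76.9 CPM, and the next highest cell had 2.03 CPM. The gap between them was 0.974 of the whole range of the group, above Dixon's 95% critical value of 0.526 for 8 cells. Such a rule marks about 1 group in 20 by chance only where the values follow a normal distribution. That rate need not hold here. In basal OHCs the leading cell held a median of 94.5% of the counts over 4279 genes. The values are also cells of 1 group and not samples. Groups of more than 10 cells were not examined in this way.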

How the results depend on the processing

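No paired analysis was possible because the replicate numbers of the labels only name cells, and no label ties cells of different groups to 1 animal. As a mean of the 3 regions, the log2 difference of Slc26a5 between OHCs and IHCs (5.10) was 4.22 from cell means, 3.36 from cell medians, 5.51 with median-of-ratios scaling, 6.22 and 3.90 with pseudocounts of 0.1 and 5, 4.48 with thinned cells, 6 and 3.31 in the lower and higher series (mean 4.65), 3.53 without the deepest cells and 5.33 without cells over 10% of counts in mt- genes and CT010467.1; leaving out 1 cell gave 3.61 to 5.26. Base against apex in OHCs (−4.31) was −5.23 from cell means, −7.98 from cell medians, −4.77 with total-count scaling, −3.56 with median-of-ratios, −4.16 with pseudocount 5, −4.86 thinned, −1.98 and −9.94 in the series (mean −5.96; the latter value depends on the pseudocount and is no bound), −8.85 without the deepest cells and −3.99 without cells over 10% of counts in mt- genes and CT010467.1; leaving out 1 cell gave −8.81 to −3.80. Middle against apex (−1.75) was −1.49, −6.86, −1.33, −2.10 and −1.33 (cell means, cell medians, total, median-of-ratios, thinned), −0.03 and −1.85 in the series (mean −0.94), −1.88 without the deepest cells, −1.27 without cells over 10% of counts in mt- genes and CT010467.1 and −1.79 without cells against their label; leaving out 1 cell gave −2.20 to −1.24. The share of OHCs with a read (69.2%) was 50% at 10 reads, 48.1% at 5 CPM, and 54.8% and 90.5% in the series. In IHCs, base against apex (−5.54) turned to 0.06 in the lower series and was 0 from cell medians, and middle against apex (−4.34) turned to 0.23 in the lower series. Basal OHCs against basal IHCs gave 0 in the higher series, where both had 0 counts; leaving out A_i_110 was chosen after seeing the data, and the cause of these shifts was not tested. Cells with few counts limit how low a level can be seen.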
